A study of Mus musculus with 2 samples.

Results

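The Msx and Dlx genes are 9 homeobox genes (Msx1, Msx2, Msx3 and Dlx1 to Dlx6), and their regions of open chromatin were examined by ATAC-seq in mouse cardiac progenitor cells (CPCs). ATAC-seq maps accessible DNA with the Tn5 transposase, which inserts sequencing adapters where the DNA is not packed away. Peaks were taken as those distinct intervals of the deposited peak list that carried the symbol of 1 of these genes, and a gene without such an interval would have counted as 0. The rule gave 23 of the 26232 distinct peaks in the list, and all 9 genes had at least 1 peak among 15351 genes with a peak.

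The study asked how Isl1, a LIM-homeodomain transcription factor of the second heart field, shapes the chromatin of CPCs. A single group was available, day 5 CPCs in 2 replicate samples, which the study's methods describe as separate differentiations of mouse embryonic stem cells. The cells were the E14 Tg(Nkx2-5-EmGFP) line, in which the fluorescent protein marks cells with activity of the Nkx2-5 gene, and the labels give their strain as C57BL/6. They were kept on MEF feeder cells, then exposed to BMP4 and later to Activin A, VEGF and BMP4, and were plated with VEGF, bFGF and FGF10. No further treatment is labelled, the ATAC-seq protocol does not say whether the cells were sorted for the fluorescent protein, and Isl1 knockdown cells named in the series' design were not analysed here. Both replicates were represented by 1 shared peak list without scores, so read depth was unknown, no value had a replicate error, and no test between conditions could be made. A region missing from the list was not called in both replicates, which is not a measurement of closed chromatin.

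Msx and Dlx proteins bind DNA through a homeodomain, and many of their genes respond to bone morphogenetic protein (BMP) signals. Msx1 and Msx2, mostly known as repressors, act in neural crest, limb, teeth and skull, and in the heart in the outflow tract and the atrioventricular cushions. Msx3 is known from the dorsal neural tube. The Dlx genes, relatives of Drosophila Distal-less, lie as pairs with their 3′ ends facing each other, and the partners of a pair are known to share enhancers that lie between them. Dlx1, Dlx2, Dlx5 and Dlx6 are known for roles in branchial arches and forebrain, Dlx3 in epidermis, hair and placenta, and Dlx4 is the least studied of them.

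In each of the 3 Dlx pairs, exactly 1 peak lay in the stretch between the facing 3′ ends. A peak midpoint lay between the ends in 17.7% of 1608 convergent coding gene pairs of like spacing. That comparison was set up after the Dlx peaks were known. Shared Dlx enhancers are known to lie in such stretches, and whether these peaks are among them was not tested. The central 300 bp of these 3 peaks are printed for their place, on the plus strand of mm9. Capitals mark the core TAAT, the letters that many homeodomains recognise, on either strand (ATTA where it lies on the minus strand).
Between Dlx1 and Dlx2, chr2:71377342-71377641: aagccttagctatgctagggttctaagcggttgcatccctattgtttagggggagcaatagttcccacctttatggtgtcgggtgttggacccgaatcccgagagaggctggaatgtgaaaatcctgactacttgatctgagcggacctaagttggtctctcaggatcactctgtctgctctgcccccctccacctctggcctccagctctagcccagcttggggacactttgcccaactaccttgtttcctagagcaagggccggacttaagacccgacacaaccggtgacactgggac
Between Dlx3 and Dlx4, chr11:94987806-94988105: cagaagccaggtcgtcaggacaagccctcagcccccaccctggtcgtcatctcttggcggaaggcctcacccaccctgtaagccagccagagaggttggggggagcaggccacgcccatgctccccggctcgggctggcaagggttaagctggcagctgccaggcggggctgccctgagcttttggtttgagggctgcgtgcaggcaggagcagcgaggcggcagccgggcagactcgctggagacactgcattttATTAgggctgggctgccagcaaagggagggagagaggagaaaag
Between Dlx6 and Dlx5, chr6:6824288-6824587: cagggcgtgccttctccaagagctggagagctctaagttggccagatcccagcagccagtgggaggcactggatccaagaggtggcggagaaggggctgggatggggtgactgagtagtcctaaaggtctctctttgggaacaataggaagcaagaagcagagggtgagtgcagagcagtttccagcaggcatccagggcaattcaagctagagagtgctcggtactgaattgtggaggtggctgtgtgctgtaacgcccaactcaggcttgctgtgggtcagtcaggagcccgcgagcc
None of these 3 windows overlapped an annotated exon. The window between Dlx3 and Dlx4 held 1 TAAT core and the other two held 0. Their GC content was 54.3% in the Dlx1/Dlx2 window, 65.0% in the Dlx3/Dlx4 window and 57.7% in the Dlx6/Dlx5 window.

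Of the peaks beyond 1 kb from a start site, 3 Msx peaks are printed in the same way, namely the widest of the distal peaks and those whose central 300 bp held the only TAATTG (a homeodomain motif of Msx and Dlx type) and the most TAAT cores among the 23 central windows. Capitals mark those letters and, also on either strand, the LIM-homeodomain type TAATGG. The motif of GATA factors searched for was AGATAA, and the E-box searched for was CAGATG. A GC-rich motif of Smad type, which was GGCGCC, is in capitals as well.
Msx1, 69313 bp upstream of the start site, chr5:38284988-38285287: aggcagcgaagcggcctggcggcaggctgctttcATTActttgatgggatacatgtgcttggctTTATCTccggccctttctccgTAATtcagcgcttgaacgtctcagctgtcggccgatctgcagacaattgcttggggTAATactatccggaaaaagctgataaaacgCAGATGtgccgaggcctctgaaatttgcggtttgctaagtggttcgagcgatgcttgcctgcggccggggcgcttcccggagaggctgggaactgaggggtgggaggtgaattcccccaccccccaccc
Msx2, 3345 bp upstream, chr13:53571345-53571644: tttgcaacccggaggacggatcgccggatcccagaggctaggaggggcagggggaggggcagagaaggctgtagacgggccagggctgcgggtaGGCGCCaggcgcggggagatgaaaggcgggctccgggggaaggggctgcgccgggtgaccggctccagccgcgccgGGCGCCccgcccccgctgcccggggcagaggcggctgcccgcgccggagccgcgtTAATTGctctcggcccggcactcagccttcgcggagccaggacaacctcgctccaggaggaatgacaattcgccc
Msx2, 17275 bp downstream, chr13:53550725-53551024: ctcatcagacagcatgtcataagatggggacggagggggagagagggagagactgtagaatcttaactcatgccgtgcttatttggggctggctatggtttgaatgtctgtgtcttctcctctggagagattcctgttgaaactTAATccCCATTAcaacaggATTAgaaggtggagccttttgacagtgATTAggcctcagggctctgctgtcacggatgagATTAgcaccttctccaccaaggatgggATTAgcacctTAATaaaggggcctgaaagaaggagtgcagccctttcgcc
The distal Msx1 window held 3 TAAT cores, 1 AGATAA and 1 CAGATG. The upstream Msx2 window held 1 TAATTG, which contains its only TAAT core, and 2 copies of GGCGCC. The downstream Msx2 window held 7 TAAT cores, the most in any central window of the Msx and Dlx peaks, and 1 of them was part of a TAATGG.

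The start sites themselves are shown by the 100 bases just before the outermost annotated start of 7 genes, in the direction of transcription on mm9. Dlx4 and Dlx1 are included as the genes where these bases lay outside any peak, and Msx2 as a gene in a peak without the marked motif. Capitals mark CCAAT on either strand (ATTGG on the minus strand), a motif of many promoters.
Msx1, chr5:38215823-38215922, minus strand: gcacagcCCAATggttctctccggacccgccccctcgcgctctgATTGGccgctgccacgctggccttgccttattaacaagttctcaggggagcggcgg
Dlx2, chr2:71384812-71384911, minus strand: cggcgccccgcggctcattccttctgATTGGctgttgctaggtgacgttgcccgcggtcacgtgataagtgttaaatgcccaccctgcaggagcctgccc
Dlx3, chr11:94981303-94981402, plus strand: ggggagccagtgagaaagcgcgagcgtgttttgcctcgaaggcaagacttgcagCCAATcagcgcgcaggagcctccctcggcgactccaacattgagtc
Dlx5, chr6:6832086-6832185, minus strand: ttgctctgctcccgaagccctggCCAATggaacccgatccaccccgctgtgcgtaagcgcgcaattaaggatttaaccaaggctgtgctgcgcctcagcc
Dlx4, chr11:95007578-95007677, minus strand: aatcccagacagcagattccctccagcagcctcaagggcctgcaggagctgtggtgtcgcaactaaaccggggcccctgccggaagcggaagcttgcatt
Dlx1, chr2:71366070-71366169, plus strand: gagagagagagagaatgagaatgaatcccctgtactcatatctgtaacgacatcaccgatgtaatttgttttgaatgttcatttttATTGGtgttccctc
Msx2, chr13:53568444-53568543, minus strand: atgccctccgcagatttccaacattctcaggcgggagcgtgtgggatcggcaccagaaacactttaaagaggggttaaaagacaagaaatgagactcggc
All 100 bases lay inside a peak at Msx1, Msx2, Msx3, Dlx2, Dlx3 and Dlx5, 27 did at Dlx6, and 0 did at Dlx1 and Dlx4. CCAAT stood 2 times before Msx1 and 1 time each before Msx3, Dlx1, Dlx2, Dlx3 and Dlx5, and was not found before Msx2, Dlx4 and Dlx6. It was thus found in 6 of the 9 genes, with and without a peak over the bases, and in 20.1% of 22367 protein coding promoters cut the same way. TATAAA was found before 0 of the 9 genes and in 6.06% of all promoters. Neither motif was among those planned. A promoter was CpG-rich where, within 500 bp of the start, GC content was 50% or higher and observed over expected CpG 0.6 or higher. Of the 9 genes 8 were CpG-rich by this measure, beside 9880 of the 22367, and its part in these shares was not tested.

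At the level of whole genes, Msx2 had 6 peaks, Msx1 and Dlx2 had 4 each, Dlx3 had 3, Dlx5 had 2, and Msx3, Dlx1, Dlx4 and Dlx6 had 1 each. The median was 2 peaks and the mean 2.56, beside a median of 1 and a mean of 1.07 over 21900 protein coding genes. At least 1 peak was found at 9 of 9 Msx and Dlx genes and at 62.5% of coding genes (95% Wilson interval 61.8 to 63.1). A peak within 1 kb of the start site, called a start-site peak here, was found at 8 of 9, and at 50.0% of coding genes. With 4 or more peaks, 3 of 9 genes (Msx1, Msx2 and Dlx2) stood beside 4.78% of coding genes. Only 1.23% of coding genes had as many peaks as Msx2 or more. These shares are descriptions of 1 list, and neither the distance from each gene to its neighbours nor the CpG content of promoters was taken into account. Of all CpG-rich promoters 89.5% overlapped a peak, and 7 of the 8 CpG-rich promoters of Msx and Dlx genes did.

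**Figure D1:**
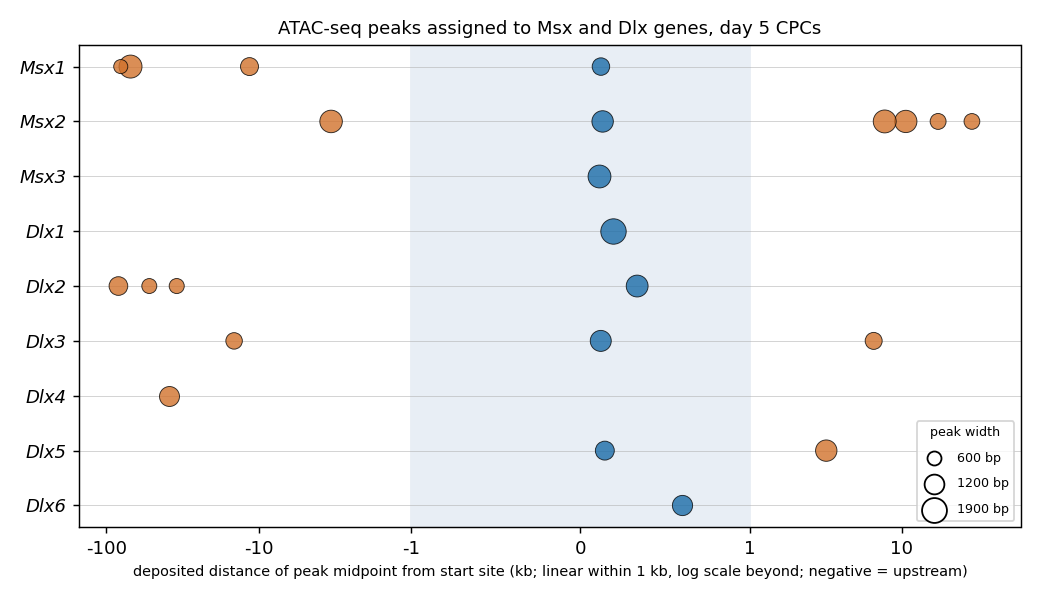
Each point is 1 of the 23 peaks, placed by the deposited distance of its midpoint from the start site (kb, linear within 1 kb and logarithmic beyond, negative upstream), and its area follows the peak's width. The blue points within 1 kb mark 8 genes, and Dlx4 has only a peak 38793 bp upstream.

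The 23 peaks covered 27357 bp in all, with widths from 608 to 1982 bp and a median of 1222 bp. Of these, 8 were start-site peaks and 15 lay farther away, and the median absolute distance was 7708 bp. By the annotated gene ends, 9 peaks lay inside or across the gene, 9 upstream and 5 beyond the 3′ end. The peaks beyond the 3′ end belonged to Msx2 (4 peaks) and Dlx3 (1 peak). No Msx or Dlx peak lay over 100 kb from its start site, where 8.20% of all peaks lay.

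Msx1 (NM_010835, chr5:38211724-38215822, minus strand), which is needed for palate and tooth formation, had a start-site peak and 3 far upstream peaks. The start-site peak at chr5:38215233-38216172 was 940 bp wide and was the narrowest start-site peak of the 9 genes, with 13.4% of all start-site peaks narrower. Its GC content of 68.1% was above the upper quartile of 61.9% of that class. The peak 69313 bp upstream, chr5:38284327-38285948, was 1622 bp wide, and 94.3% of all peaks 50 to 100 kb from a start were narrower. Of the other two upstream peaks, the one at 11478 bp was 989 bp wide and the one at 80336 bp was 608 bp wide. The far peak of Msx1 was thus wider than the peak at its own start, while the farthest was the narrowest of all 23. The set spanned 81232 bp, of which 5.12% was in peaks, and all 3 upstream peaks were intergenic.

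Msx2 (NM_013601, chr13:53562250-53568443, minus strand), known for roles in skull bone growth and outflow tract, carried the most peaks. Its set was the densest among the genes with 3 or more peaks. Its 6 peaks covered 22.9% of a 33298 bp span. The start-site peak at chr13:53567313-53568722 was 1410 bp wide, and 56.8% of start-site peaks were narrower. A 1555 bp peak stood 3345 bp upstream at chr13:53570718-53572272. The 4 peaks past the 3′ end were 1610 bp wide at 7708 bp, 1523 bp at 10601 bp, 779 bp at 17275 bp and 763 bp at 28794 bp from the start. The 3 wide ones near the gene (at -3345, 7708 and 10601 bp) were each wider than at least 85.1% of peaks of their distance class, while the farther ones, at 17275 and 28794 bp, were wider than 30.3% and 28.3% of theirs. Distances to the start annotated by GENCODE differ from the deposited ones by 294 bp at each Msx2 peak.

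Msx3 (NM_010836, chr7:147232056-147235039, minus strand) had 1 peak, at chr7:147234075-147235676, which lay 112 bp past the start. It was 1602 bp wide, more than 70.0% of start-site peaks, and covered 32.3% of the gene. All 3 Msx genes therefore had a start-site peak, and distal peaks were assigned to Msx1 and Msx2 alone.

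**Figure D2:**
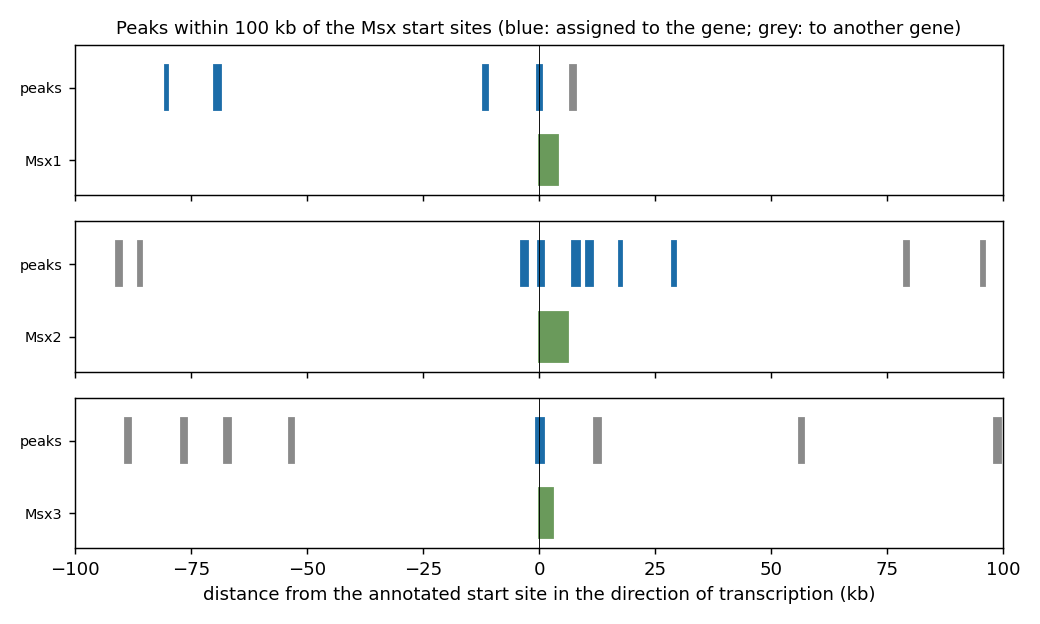
Peaks within 100 kb of each Msx start site are drawn to scale along the direction of transcription (kb from the annotated start), in blue where assigned to the gene and in grey where assigned to another gene, with the gene body in green. Msx2 shows 6 blue peaks with midpoints from -3051 to 29088 bp, Msx1 has its blue peaks at the start and upstream, and Msx3 has 1 blue peak among 7 grey ones.

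Among the Dlx genes, Dlx1 and Dlx2 form the pair on chromosome 2. Dlx1 (NM_010053, chr2:71366170-71372038, plus strand) had 1 peak at chr2:71366705-71368686, which at 1982 bp was the widest of the 23, with 86.1% of start-site peaks narrower. It lay wholly inside the annotated gene and covered 4 of its 6 annotated starts, but not the outermost. The outermost Dlx1 promoter, taken as 500 bp on either side of the start, had a GC content of 44.6% and overlapped no peak. Dlx2 (NM_010054, chr2:71381466-71384811, minus strand) had a 1465 bp peak at chr2:71383744-71385208, across its start. It also had 3 intergenic peaks upstream, of 697 bp at 34477 bp, 689 bp at 52182 bp and 1071 bp at 83213 bp. The Dlx2 peaks spanned 84817 bp, close to the span at Msx1, and 4.62% of that was in peaks. The Dlx2 peak at 34477 bp upstream had an observed over expected CpG ratio of 0.79, the highest of the 15 peaks beyond 1 kb.

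Dlx3 and Dlx4 form the pair on chromosome 11 and differed at their start sites. Dlx3 (NM_010055, chr11:94981403-94986610, plus strand) had a 1353 bp start-site peak at chr11:94980877-94982229, an 836 bp peak 14487 bp upstream and an 886 bp peak 6524 bp downstream. Dlx4 (NM_007867, chr11:95001770-95007577, minus strand) was the only 1 of the 9 genes without a start-site peak, and no base of the gene lay in a peak. Its single peak, chr11:95045298-95046519, was 1222 bp wide and lay 38793 bp upstream. The nearest peak to the Dlx4 start was 19622 bp away and was the downstream peak of Dlx3. The Dlx4 promoter was CpG-rich, with a GC content of 58.2% and a CpG ratio of 0.70, values close to the 57.4% and 0.70 of the Dlx3 promoter. Promoters counted as CpG-rich (GC content 50% or higher, CpG ratio 0.6 or higher) overlapped a peak in 89.5% of 9880 cases (95% Wilson interval 88.9 to 90.1) and in 7 of 8 cases among the Msx and Dlx genes.

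Dlx5 and Dlx6, which act in jaw and bone formation, form the pair on chromosome 6, and all 3 of their peaks lay inside or across a gene. Dlx5 (NM_010056, chr6:6827805-6832085, minus strand) had a 1100 bp peak at its start, chr6:6831374-6832473, and a 1403 bp peak in an intron 3187 bp downstream, chr6:6828181-6829583. Together they covered 49.4% of the gene, the highest share of the 9 genes. Dlx6 (NM_010057, chr6:6813334-6818568, plus strand) had 1 peak of 1252 bp, chr6:6813307-6814558, centred 598 bp past the deposited start and 134 bp past the nearest of 4 annotated starts. That peak crossed the outermost Dlx6 start and covered all 4 annotated starts. Its midpoint fell in introns of both Dlx6 and the antisense transcript Dlx6os1, and accessibility does not tell the strands apart.

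The peaks between the pairs were mostly not assigned to a Dlx symbol. The Dlx1/Dlx2 peak, chr2:71376732-71378252 and 1521 bp wide, carried the antisense gene Dlx1as (NR_002854), with its midpoint 1543 bp before that start. It lay in a gap of 9427 bp. The Dlx6/Dlx5 peak, chr6:6823807-6825068 and 1262 bp wide, carried Dlx6os1 (NR_015388) at -4904 bp and lay in a gap of 9236 bp. The Dlx3/Dlx4 peak was the 886 bp Dlx3 peak, in a gap of 15159 bp with its midpoint 1345 bp from the Dlx3 end of it. A comparison with other convergent genes was set up after the peaks between the Dlx pairs were known. Of 1608 neighbouring convergent coding gene pairs with 4618 to 30318 bp between them, 17.7% had a peak midpoint between their ends (95% Wilson interval 15.9 to 19.6), against 3 of 3 Dlx pairs. A further antisense gene, Msx1os (NR_027920), had a 1238 bp peak at chr5:38207810-38209047, 2677 bp past the 3′ end of Msx1. By the nearest protein coding start these 3 antisense-gene peaks also belong to Msx or Dlx genes, which makes 26 peaks.

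**Figure D3:**
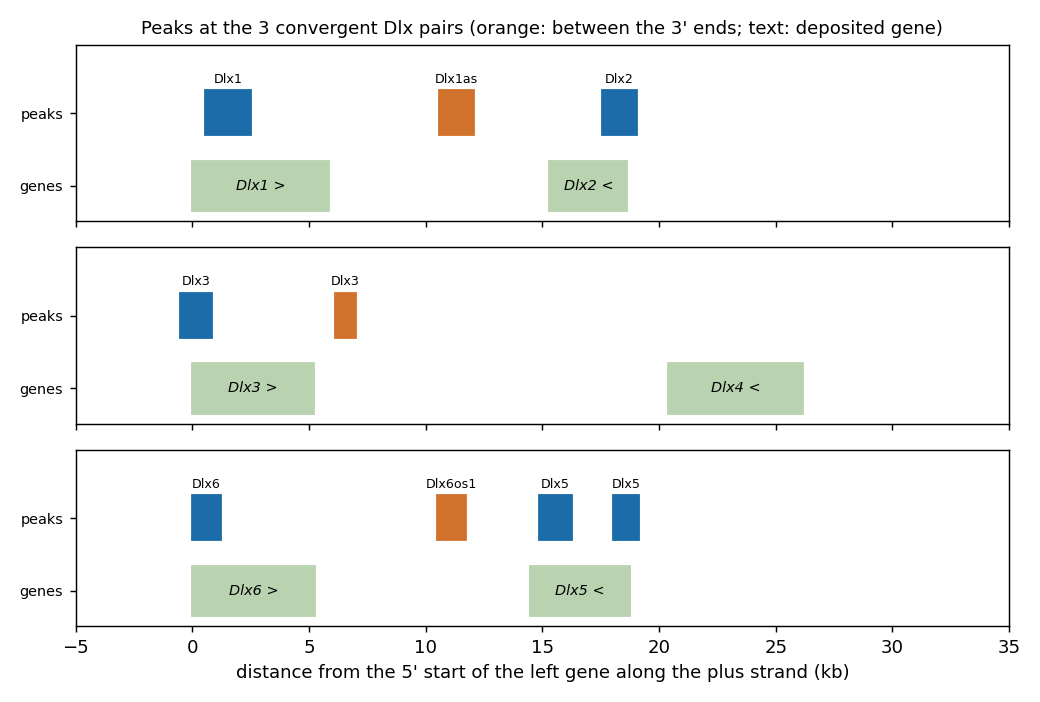
The 3 convergent Dlx pairs are drawn to scale (kb from the start of the left gene), with genes in green and arrowheads for the direction of transcription, peaks above them and the deposited gene symbol over each peak. Each pair has 1 orange peak between the facing 3′ ends, and Dlx4 has none over its gene (its own peak lies beyond the drawn stretch).

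Within 100 kb of the 9 start sites lay 43 distinct peaks, the 23 assigned to Msx and Dlx genes and 20 assigned to others. Msx2 had 10 peaks in its window, Dlx3 and Msx3 had 8 each, Dlx2 and Dlx4 had 7, Dlx1 had 6, and Msx1, Dlx5 and Dlx6 had 5. The Msx3 neighbourhood was the most mixed, since 7 of its 8 peaks carried Utf1, Adam8, Tubgcp2, Fuom, Echs1, Paox and Mtg1. The others lay near Msx2 (Sptlc1, Gm2762 and 2 peaks of 9530014B07Rik), near Dlx1 and Dlx2 (Metap1d and Dlx1as), near Dlx3 and Dlx4 (Pdk2, Tac4 and 2 peaks of Itga3), near Dlx5 and Dlx6 (Sdhaf3 and Dlx6os1) and near Msx1 (Msx1os). The windows of pair partners overlap, so peaks near Dlx genes were counted in more than 1 window.

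Peak width was compared within distance classes, since start-site peaks were wider in the list as a whole. The 8 start-site peaks had a median width of 1381.5 bp beside 1326 bp over all 11772 start-site peaks, and 1 (Dlx1) exceeded the upper quartile of 1691 bp. Of the 4 peaks at 1 to 10 kb, the median was 1479 bp beside 1014 bp, and 3 (Msx2 at -3345 and 7708 bp, and Dlx5) exceeded the upper quartile of 1312 bp. The 7 peaks at 10 to 50 kb had a median of 836 bp beside 912 bp, and the 4 at 50 to 100 kb had 880 bp beside 873 bp. By the overlap step that the authors describe, the width of a listed peak would be that of the interval in 1 replicate. The list does not name that replicate, and its part in these differences was not tested.

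**Figure D4:**
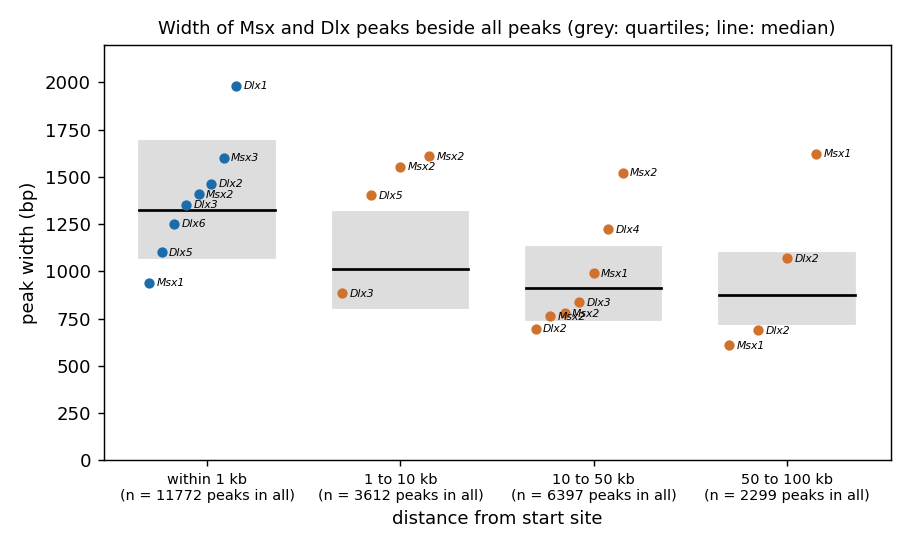
Points are the widths (bp) of the Msx and Dlx peaks in 4 classes of distance from the start site, labelled by gene, over grey boxes for the lower to upper quartile and black lines for the median of all peaks in the class. Dlx1 at the start, Msx2 and Dlx5 at 1 to 10 kb, Msx2 and Dlx4 at 10 to 50 kb and Msx1 at 50 to 100 kb lie above the boxes.

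Each of the longer motifs was found in at most 4 of the 23 central windows of 300 bp. TAATTG was found in 1 of the 23 windows (Msx2 at -3345 bp) and in 4.28% of the central windows of all peaks. TAATGG was found in 2 (Msx2 at 17275 bp and Dlx3 at -14487 bp) beside 5.39%. AGATAA was found in 1 (Msx1 at -69313 bp) beside 9.50%, and CAGATG in 2 (that Msx1 peak and Dlx2 at -52182 bp) beside 16.8%. GGCGCC was found in 4 windows, those of the start-site peaks of Msx3, Dlx2 and Dlx6 and of the upstream Msx2 peak, beside 17.3%. These shares differed with distance. Of the 15 distal windows, TAATTG was in 1 beside 5.95% of all distal windows, TAATGG in 2 beside 7.57%, AGATAA in 1 beside 14.6% and CAGATG in 2 beside 23.0%. GGCGCC was in 1 of the 15 beside 7.95%, and in 3 of the 8 start-site windows beside 28.8% of all start-site windows. Over whole peaks the counts were higher for these peaks and for all peaks. TAATTG was then found in 3 of the 23 beside 20.7%, TAATGG in 5 beside 23.7%, AGATAA in 5 beside 33.5%, CAGATG in 6 beside 52.2% and GGCGCC in 8 beside 34.3%. The whole-peak TAATTG copies were in the Msx2 peaks at -3345 and 10601 bp, with 2 in the latter, and in the Dlx5 start-site peak. The TAAT core, counted after the values of the longer motifs had been seen, was found in the central window of 10 of 15 distal Msx and Dlx peaks and of 52.5% of all distal peaks. It was present in 7 of the 8 distal Msx windows, with 22 cores in all, and in 3 of the 7 distal Dlx windows, with 3 cores. The Msx2 window at 17275 bp held 7 of those 22 cores. The GC content of the windows was not taken into account, and the difference between the families was not tested. Over whole peaks the TAAT core was found in 14 of the 15 distal peaks beside 92.7% of all distal peaks, with the most, 12, in the Msx1 peak at -69313 bp. Letters in a window do not show that a factor was bound.

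Other homeobox genes were counted for comparison. Of 137 such genes, 112 had at least 1 peak (81.8%, 95% Wilson interval 74.4 to 87.3), 70 had a start-site peak (51.1%, 42.8 to 59.3) and 18 had 4 or more peaks (13.1%). Their median was 1 peak and their mean 1.82, and 42 of them had distal peaks alone. The most peaks were at Irx3 (10), Isl1 (8) and Pknox2 (8). Msx2 with 6 peaks stood among the 5.11% of other homeobox genes with at least as many. The Msx and Dlx genes thus stood beside the other homeobox genes with start-site peaks at 8 of 9 genes against 70 of 137, and that difference was not tested. Neither the CpG content of the promoters nor the distance from each gene to its neighbours was taken into account in that difference. The 137 genes include those of the Hox clusters, several of which had no peak, and the shares without the Hox genes were not computed.

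**Figure D5:**
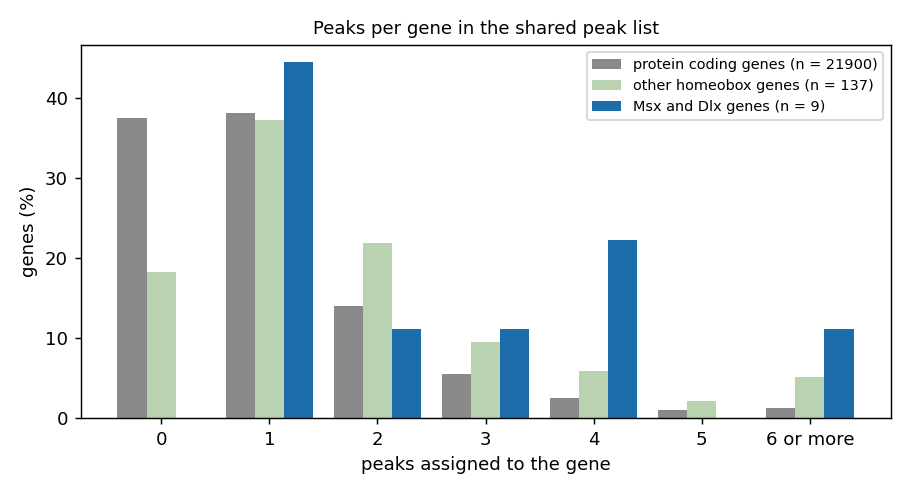
Bars give the percentage of genes with 0 to 5 and with 6 or more assigned peaks, for 21900 protein coding genes (grey), 137 other homeobox genes (green) and the 9 Msx and Dlx genes (blue). The Msx and Dlx genes have no gene at 0 peaks, 4 genes at 1 peak, 2 at 4 peaks and 1 at 6.

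BMP signalling was counted because Msx and Dlx genes are known targets of it and BMP4 was part of the culture. Of 25 ligands, antagonists, receptors, Smads and Id genes, 23 had a peak (92.0%, beside 62.5% of coding genes), 20 had a start-site peak (80.0% beside 50.0%) and 8 had 4 or more peaks (32.0% beside 4.78%), with a median of 3 peaks. Smad6, an inhibitory Smad, had 8 peaks, and Id3, a direct BMP target, had 7. The BMP antagonist Nog and the receptor gene Bmpr1b had 5 each. The ligand genes Bmp5 and Bmp10 had 0 peaks, and the other genes of the list had 1 to 4. The CpG content of promoters and the distance from each gene to its neighbours were not taken into account in these shares. Accessible chromatin does not measure signalling, and no expression was measured here.

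The label of the cells was set against marker genes, of which a peak alone says little, since 62.5% of coding genes had at least 1. Of 8 cardiac progenitor markers 7 had a peak, with 8 at Isl1, 6 at Tbx20, 5 at Tbx5, 4 at Mef2c, 3 each at Nkx2-5 and Gata4, 1 at Myocd and 0 at Hand2. Peaks were also found at 4 of 5 neural crest markers, 3 of 5 pluripotency markers, 3 of 5 endothelial markers and 2 of 4 surface ectoderm markers. Per gene, the markers averaged 3.75 peaks in the cardiac progenitor list, 2.40 in the neural crest list, 1.60 in the pluripotency list, 1.00 in the endothelial list and 0.50 in the surface ectoderm list, beside 1.07 over coding genes. The marker means rest on 4 to 8 genes per list, and the distance from each gene to its neighbours was not taken into account. Of the neural markers, Sox1 had 5 peaks, Pax6 and Olig2 had 3 each and Neurod1 had 1. The neural crest markers had 5 at Ets1, 3 at Tfap2b, 2 each at Tfap2a and Foxd3 and 0 at Sox10. The pluripotency markers had 4 at Esrrb, 2 each at Nanog and Zfp42 and 0 at Pou5f1 and Tdgf1. Markers of other types thus also had peaks, several with as many as the cardiac genes. The endothelial markers had 2 each at Cdh5 and Erg, 1 at Pecam1 and 0 at Tie1 and Tek, and the surface ectoderm markers 1 each at Krt5 and Grhl3 and 0 at Krt14 and Trp63. Msx and Dlx genes are also known from neural crest, neural and ectodermal cells, and the part of such cells in their peaks was not tested.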

How the data were processed

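ATAC-seq was performed on 2 replicate samples of day 5 CPCs. As described by the authors, reads were mapped to mm9 with bowtie2, filtered with samtools, freed of duplicates with Picard 1.136 and called as peaks per replicate with MACS14 with a fixed shift, and no other Tn5 offset correction is described. Blacklisted regions were removed, and bedtools 2.15 was used to retain peaks that shared 1 bp or more between replicates (versions from the submitters' processing notes). HOMER assignment to the nearest start is described for ChIP-Seq peaks.

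The deposited list, per the file's values, holds interval positions, signed distances to a start site in bp, RefSeq accessions and symbols, with 26429 lines and 26232 distinct intervals. It holds no count, score or value per replicate. Lines with a member symbol were taken, each distinct interval once.

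Gene models came from GENCODE vM1 and sequence from NCBIM37 (mm9). Accessions were matched to a RefSeq gene table for the background (96.7% of peaks matched). Motifs were counted on both strands in the central 300 bp. Python 3.11.15, numpy 2.4.6, pandas 2.3.3, scipy 1.17.1, pysam 0.24.0, matplotlib 3.10.9 and samtools 1.23.1 were used, and the scripts were tested on simulated data. Where a share carries a 95% Wilson interval, the interval covers counting error only. The counts of the 9 genes and of the 3 Dlx pairs are given without one. All values are descriptions with no test. The genes and lists were chosen with earlier results of these data known. Named genes were all 9 members, genes assigned to any peak within 100 kb of a member start, the BMP genes with the most peaks or none, the 3 other homeobox genes with the most peaks, and markers. Width filters, distance limits, other assignment rules and other gene sets were tried as alternatives. A comparison of the proteins was not run. One neural marker, and the counts of its list, are not reported here.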

Additional observations from a re-analysis of the deposited data

How the results depend on the processing

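For 14 results, 32 values were recomputed under 14 settings. Of these, 18 stayed inside the result's interval or within 1.5 times a count, and 14 moved further. Keeping only intervals above the median width left 13 Msx and Dlx peaks and 28 peaks within 100 kb, and lowered the share of coding genes with a peak to 44.2%, by the construction of that filter. All 9 genes had a peak and 7 a start-site peak under it, and the median absolute distance fell from 7708 to 598 bp, inside a wide interval of 336 to 28794 bp. That interval takes the 23 peaks as if they were independent draws, and only its width places this large fall among the values that stayed. Windows of 50 kb and 250 kb held 24 and 78 peaks. The share of coding genes with a peak was 57.0% over the genome annotation and 60.6% with matching by symbol alone. Between all convergent coding pairs the share was 22.6%. Counting over whole peaks gave TAATTG in 3, TAATGG in 5, AGATAA in 5, CAGATG in 6, GGCGCC in 8 and TAAT in 22 of the 23 peaks, by the longer sequence searched. Matching by symbol, both convergent-pair shares, the TAAT count and the whole-peak counts were chosen after seeing the data. Requiring overlap with 1 kb either side of an annotated start left 8 genes with a peak, without Dlx4. A start-site limit of 500 bp gave 7 genes and a limit of 2 kb gave 8. No paired analysis was possible because there was 1 group, and neither replicate could be left out of the shared list. Depth was unknown, so what it limits cannot be stated.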
